A study of Mus musculus with 9 samples.

Results

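The genes described here are the mouse matrix metalloproteinases (MMP), the ADAMTS proteases, the ADAMTS-like (ADAMTSL) proteins and the tissue inhibitors of metalloproteinases (TIMP), chosen by their gene symbols alone. The expression table held 51 of them among 22354 gene symbols: 23 MMP, 19 ADAMTS, 5 ADAMTSL and 4 TIMP genes. A gene with more than 1 row (5 of the 51) was represented by its brightest row on average over the 9 arrays, and all 51 genes were tested without a filter on low signals. Total RNA came from the central part of the tibia of female C57BL/6j mice, aged 2 months by the sample labels, and was measured on GeneChip Mouse Gene 2.0 ST arrays, with 3 arrays in each of 3 groups. The active group had a tibia fracture and received carprofen at 20 mg/kg for 3 days at the active time (ZT13). Carprofen belongs to the NSAIDs, which block the cyclooxygenases that make prostaglandins. The resting group had the same fracture and the same drug, given at the resting time (ZT2). The control group had neither surgery nor NSAID, so that fracture and drug cannot be told apart in a comparison with it. Bones were collected at ZT6, those with a fracture 78 hours after surgery together with their callus and hematoma. The last dose then lay over 18 hours back for active dosing and over 30 hours back for resting dosing, so that the time since the last dose differed along with its timing. The study's methods assign 9 mice to the 3 groups, while its results speak of RNA pools, so it is unclear whether each array held 1 mouse. The p-values here rest on the spread among RNA samples, which may be technical if RNA was pooled.

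MMPs are zinc proteases that cut collagens, elastin, fibronectin and other parts of the extracellular matrix, and most of them are made as inactive proenzymes. ADAMTS proteases cut proteoglycans such as aggrecan and versican, trim procollagens or act on other matrix proteins, and ADAMTSL proteins resemble them but lack the protease domain. TIMPs bind the active sites of MMPs, and TIMP3 also inhibits ADAMTS enzymes. The balance of protease and inhibitor thus helps to set how fast matrix is removed. In a healing fracture, matrix of the hematoma and of the early callus is remodelled by such enzymes, which come from fibroblasts, osteoblasts, chondrocytes, osteoclasts, macrophages and neutrophils.

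The question of the first comparisons was how expression at the treated fracture site differed from that of the intact bone. In the active group, 21 of the 51 genes were higher and 4 were lower than in the control group (limma, adjusted p under 0.05, Benjamini-Hochberg adjustment across the 24367 rows of the table). This was 49.0% of the genes, against 23.9% of all rows. The higher genes made up 41.2% of the 51, against 11.8% of all rows, and the lower genes 7.84%, against 12.1% of all rows. In the resting group, 23 genes were higher and 3 were lower than in the control group, which was 51.0% of the genes against 19.1% of all rows. Here the higher genes made up 45.1%, against 9.08% of all rows, and the lower genes 5.88%, against 10% of all rows. The methods' t-test with the same adjustment gave 15 higher and 1 lower (Mmp8) in the active group and 14 higher and 0 lower in the resting group, and without control replicate 3 or resting replicate 3, limma gave 1 lower gene (Mmp8) in the resting group. The median log2 difference of the 51 genes was 0.355 in the active group and 0.37 in the resting group, while the median over all rows was 0.02 in both comparisons. Both comparisons used the same 3 control arrays and are therefore not independent of each other.

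**Figure D1:**
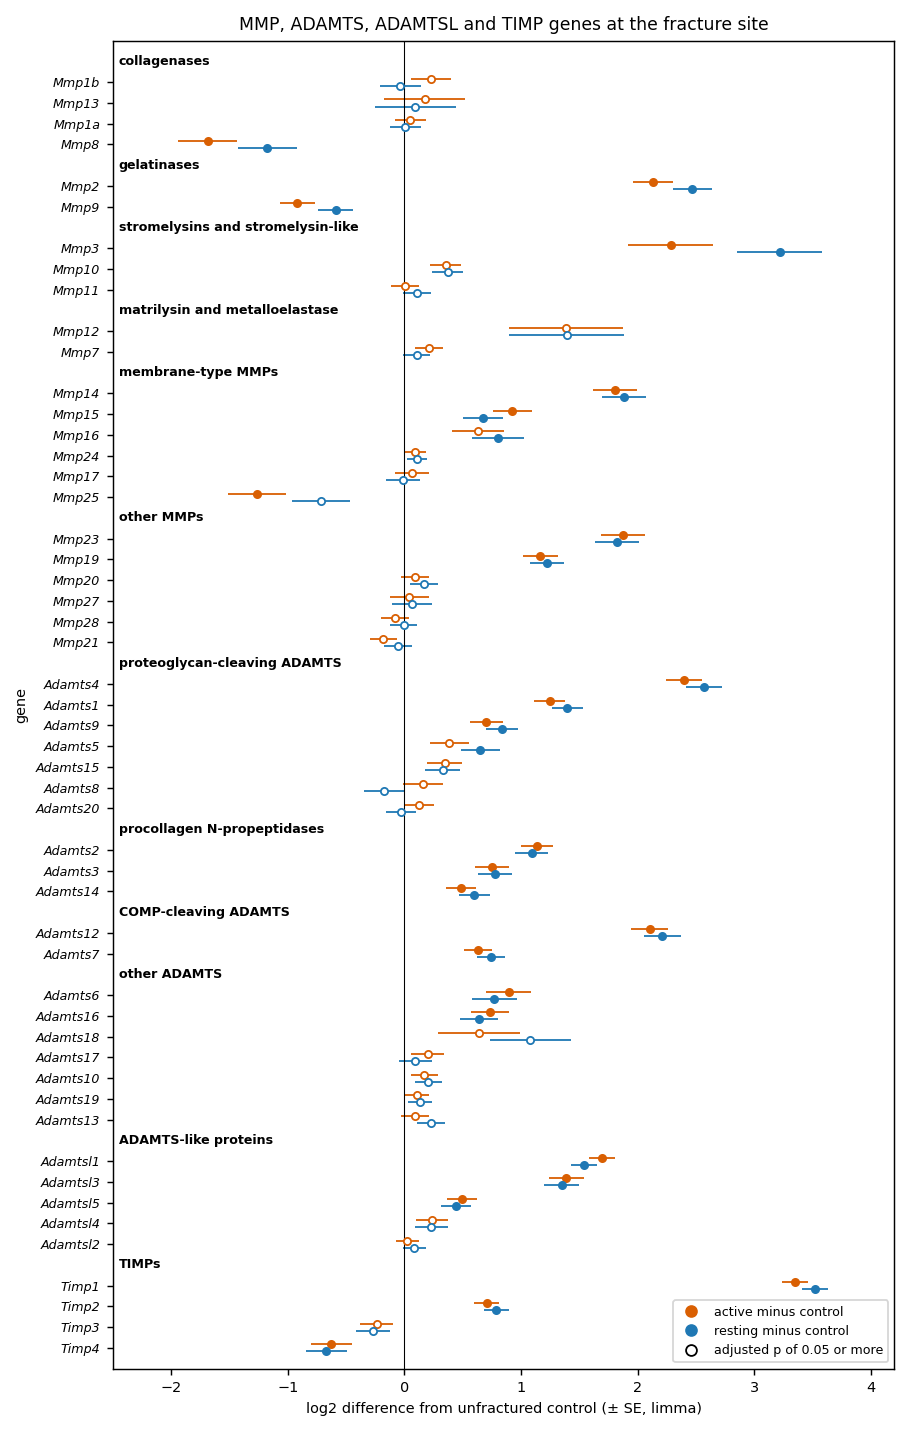
Log2 difference from the unfractured control group (horizontal axis) for each of the 51 genes, grouped by known role, with the active group in orange and the resting group in blue. Points are limma estimates from 3 arrays per group, bars are ± 1 SE, and open points have an adjusted p of 0.05 or more. Timp1 lies farthest to the right, at 3.35 and 3.52, and Mmp8 farthest to the left, at -1.68 and -1.17.

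The counts are given by family, and families were not tested against each other. Of the 19 ADAMTS genes, 10 were higher in the active group and 11 in the resting group, and none passed the test as lower. Of the 5 ADAMTSL genes, 3 were higher in either group. Of the 23 MMP genes, 6 were higher and 3 were lower in the active group, and 7 were higher and 2 were lower in the resting group. Of the 4 TIMP genes, 2 were higher and 1 was lower in either group. A difference of at least 2-fold with an adjusted p under 0.05 was found for 14 genes in the active group, against 7.05% of all rows, and for 13 in the resting group, against 5.57% of all rows. With 3 arrays against 3, the exact two-sided permutation test has a smallest p of 0.1, and it gave 0.1 for every gene whose groups did not overlap. The arrays did not overlap with those of the control group for 26 genes that were higher and 5 that were lower in the active group, against 18.9% and 17.6% of all rows. For the resting group, 27 genes lay above and 4 lay below all control arrays, against 17.6% and 17.8% of all rows.

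The inhibitor Timp1 showed the largest difference of all 51 genes. Timp1 encodes a secreted inhibitor of most MMPs. Its log2 signal was 9.51, 9.50 and 9.33 in the active group, 9.52, 9.60 and 9.73 in the resting group and 6.05, 6.25 and 5.99 in the control group. All 6 arrays of fractured bone lay far above all control arrays, and every resting array was above every active array. The log2 difference was 3.35 ± 0.11 (SE, n = 3 arrays per group) in the active group, a 10.2-fold increase (limma, adjusted p = 3.35e-07). In the resting group it was 3.52 ± 0.11, an 11.5-fold increase (limma, adjusted p = 1.98e-07).

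Timp2 encodes an inhibitor that also takes part in the activation of pro-MMP2 at the cell surface. Its signal was 9.22, 9.13 and 9.15 in the active group, 9.34, 9.08 and 9.32 in the resting group and 8.38, 8.53 and 8.46 in the control group. Every array of fractured bone lay above every control array. The differences were 0.71 ± 0.11 (SE) in the active group (limma, adjusted p = 6.39e-04) and 0.79 ± 0.11 in the resting group (limma, adjusted p = 4.48e-04). Timp3, whose product is bound to the matrix and also inhibits ADAMTS enzymes, had signals of 8.97, 8.98 and 9.22 in the active group, 9.23, 8.73 and 9.12 in the resting group and 9.16, 9.42 and 9.31 in the control group. Here the groups overlapped, and neither the active group (-0.24 ± 0.14, adjusted p = 0.288) nor the resting group (-0.27 ± 0.14, adjusted p = 0.244) passed the test.

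Timp4 encodes the TIMP best known from the heart. It had signals of 5.68, 6.03 and 6.26 in the active group, 5.95, 6.08 and 5.82 in the resting group and 6.35, 6.93 and 6.59 in the control group. All arrays of fractured bone lay below the control arrays, although the highest active array (6.26) came close to the lowest control array (6.35). The differences were -0.63 ± 0.18 (SE; limma, adjusted p = 0.0239) in the active group and -0.67 ± 0.18 (adjusted p = 0.0212) in the resting group. The call for the active group was lost without control replicate 2 or 3 or active replicate 1 or 2 (adjusted p = 0.0524 to 0.0919). That for the resting group was lost without control replicate 2 or 3 or resting replicate 3 (adjusted p = 0.0576 to 0.0832).

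**Figure D2:**
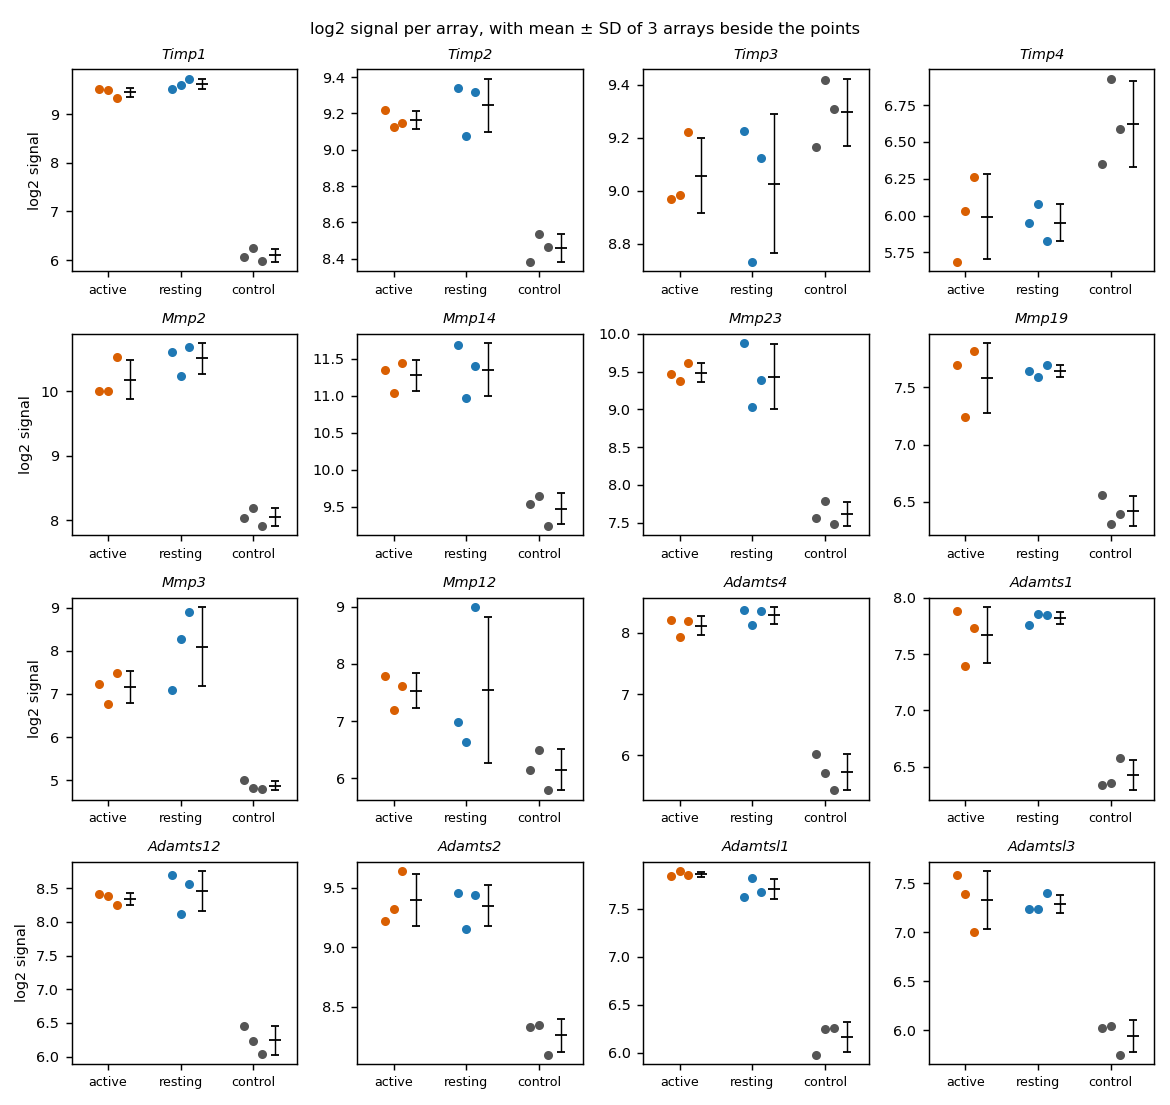
Log2 signal of 16 genes in each array (vertical axis, with its own range in each panel and not starting at 0) for the active, resting and control groups. Points are single arrays, and the dash and bar beside them are the mean ± SD of 3 arrays; for Timp1 the arrays of fractured bone sit between 9.33 and 9.73 and those of the control group between 5.99 and 6.25.

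Among the proteases, the gelatinase Mmp2 and its membrane-bound activator Mmp14 were both higher in fractured bone. Mmp2 degrades denatured collagen and basement membrane collagen. Its signal was 10.01, 10.001 and 10.53 in the active group, 10.62, 10.24 and 10.69 in the resting group and 8.04, 8.19 and 7.91 in the control group. The arrays of the fractured groups overlapped with each other and lay far above those of the control group. The log2 difference was 2.13 ± 0.17 (SE) in the active group (4.38-fold; limma, adjusted p = 1.16e-05) and 2.47 ± 0.17 in the resting group (5.53-fold; limma, adjusted p = 1.05e-05).

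Mmp14 encodes a membrane-type protease that cuts fibrillar collagen and activates pro-MMP2. It had signals of 11.35, 11.04 and 11.44 in the active group, 11.69, 10.97 and 11.41 in the resting group and 9.54, 9.64 and 9.24 in the control group. No array of fractured bone fell below 10.97. The differences were 1.80 ± 0.19 (SE; limma, adjusted p = 6.13e-05) in the active group and 1.88 ± 0.19 (adjusted p = 6.84e-05) in the resting group. Of the other membrane-type genes, Mmp15 was higher in the active group (0.92 ± 0.17, adjusted p = 0.00235) and in the resting group (0.67 ± 0.17, adjusted p = 0.0176). Mmp16 passed the test in the resting group (0.80 ± 0.22, adjusted p = 0.0291) and not in the active group (0.63 ± 0.22, adjusted p = 0.0659). Without resting replicate 1, the resting difference was 0.51 and did not pass (adjusted p = 0.0527), while the active difference passed (adjusted p = 0.0101). The resting call was also lost without any 1 of the control arrays (adjusted p = 0.0599 to 0.101). The direct difference of Mmp16 between active and resting was -0.17 ± 0.22 (adjusted p = 0.956). Mmp17 and Mmp24, a membrane-type gene known from the nervous system, differed from control by 0.11 or less in both groups and did not pass the test.

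Mmp23 encodes a membrane-anchored MMP of unusual domain structure. Its signal was 9.47, 9.37 and 9.62 in the active group, 9.88, 9.03 and 9.39 in the resting group and 7.56, 7.79 and 7.48 in the control group. The resting arrays were more spread out than the active arrays, and both groups lay above all control arrays. The differences were 1.87 ± 0.19 (SE; limma, adjusted p = 5.03e-05) in the active group and 1.82 ± 0.19 (adjusted p = 8.95e-05) in the resting group. Mmp19, a secreted MMP of broad substrate range, had signals of 7.70, 7.24 and 7.82 in the active group, 7.64, 7.59 and 7.70 in the resting group and 6.56, 6.30 and 6.39 in the control group. It was thus higher in every array of fractured bone, by 1.17 ± 0.15 (adjusted p = 2.19e-04) in the active group and by 1.22 ± 0.15 (adjusted p = 2.23e-04) in the resting group.

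Of the MMP genes, 10 lie side by side on mouse chromosome 9 (assembly GRCm38.p6), in the order Mmp13, Mmp12, Mmp1b, Mmp3, Mmp1a, Mmp10, Mmp8, Mmp27, Mmp20 and Mmp7. These neighbours did not move together. Against the control group, Mmp3 was higher in both groups of fractured bone, Mmp8 was lower in both, and the other 8 did not pass the test in either. Promoters of MMP genes are known for binding sites of AP-1, the dimer of Jun and Fos proteins, and for a TATA box. The promoter sequences of 6 of the 10 genes are given here because they show the letters of neighbours with a difference (Mmp3 and Mmp8) and of neighbours that did not pass the test. The sequences are from RefSeq (GRCm38.p6), read 5′ to 3′ on the gene's own strand, which is the + strand for all 6, from 100 bases before the annotated transcription start to 20 bases after it. Capitals mark TGANTCA (AP-1, with N for any base) and TATAAA, searched on both strands. TTTATA in Mmp8 is thus the TATAAA of the other strand.
Mmp3: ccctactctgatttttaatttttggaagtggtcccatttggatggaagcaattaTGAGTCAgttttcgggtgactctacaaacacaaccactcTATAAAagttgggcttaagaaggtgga
Mmp12: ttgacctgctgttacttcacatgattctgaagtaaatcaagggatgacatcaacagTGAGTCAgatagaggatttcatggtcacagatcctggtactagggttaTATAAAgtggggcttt
Mmp10: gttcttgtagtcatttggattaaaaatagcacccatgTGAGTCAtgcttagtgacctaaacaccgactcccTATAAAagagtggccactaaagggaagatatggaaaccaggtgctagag
Mmp13: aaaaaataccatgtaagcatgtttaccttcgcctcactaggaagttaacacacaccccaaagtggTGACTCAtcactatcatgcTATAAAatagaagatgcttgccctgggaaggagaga
Mmp1a: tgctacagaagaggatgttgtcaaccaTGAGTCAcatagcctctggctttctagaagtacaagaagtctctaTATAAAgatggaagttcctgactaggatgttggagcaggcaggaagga
Mmp8: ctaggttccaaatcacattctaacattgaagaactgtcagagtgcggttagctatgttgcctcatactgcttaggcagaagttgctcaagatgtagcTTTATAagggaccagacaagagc

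These windows lie at chr9:7445722-7445841 for Mmp3, chr9:7347274-7347393 for Mmp12, chr9:7502242-7502361 for Mmp10, chr9:7272414-7272533 for Mmp13, chr9:7464041-7464160 for Mmp1a and chr9:7558329-7558448 for Mmp8. For Mmp12, which has several annotated starts, the window with the motif is shown, and its other promoter held neither motif. The first base of the AP-1 motif lay 46 bases before the start in Mmp3, 44 in Mmp12, 63 in Mmp10, 35 in Mmp13 and 73 in Mmp1a, while the window of Mmp8 holds no TGANTCA. That of TATAAA lay 7 bases before the start in Mmp3, 29 in Mmp10, 16 in Mmp13 and 28 in Mmp1a. In Mmp12 TATAAA lay just after the start, and the TTTATA of Mmp8 began 3 bases before the start. Promoters of 300 bases, 250 before to 50 after the start, were found for 36 of the 51 genes, with 39 promoters in all. TGANTCA was found in 8 of the 12 promoters of the chromosome 9 genes, in 0 of the 27 promoters of the other members and in 7.81% of the 32851 promoters of the whole RefSeq table. TATAAA was found in 9 of the 12, in 3 of the 27 and in 13.6% of all promoters. Of the neighbours whose sequences are not shown, Mmp27 held neither motif. Mmp1b, Mmp20 and Mmp7 held both, though not in every Mmp7 promoter. None of these neighbours passed the test against control, so that a missing AP-1 motif was not particular to Mmp8. The median GC content was 41.7% in the chromosome 9 promoters, 66.0% in the other members' promoters and 52.7% in all promoters. A match describes the letters and does not show that a factor binds there.

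Of the chromosome 9 genes, Mmp3 had the largest difference. Mmp3 encodes stromelysin-1, which cuts proteoglycans and activates other pro-MMPs. Its signal was 7.23, 6.77 and 7.49 in the active group, 7.10, 8.28 and 8.91 in the resting group and 5.005, 4.83 and 4.80 in the control group. All arrays of fractured bone were above the control arrays, and 2 of the 3 resting arrays were above all active arrays while the other lay among them. The differences from control were 2.28 ± 0.36 (SE; 4.87-fold, limma, adjusted p = 9.78e-04) in the active group and 3.22 ± 0.36 (9.30-fold, adjusted p = 1.50e-04) in the resting group. Mmp10, which encodes stromelysin-2, and Mmp11, which encodes stromelysin-3, did not pass the test. Mmp10 differed from control by 0.355 in the active group (adjusted p = 0.0801) and by 0.37 in the resting group (adjusted p = 0.0805). The row used for Mmp11 differed by 0.005 in the active group and by 0.11 in the resting group. A dimmer row of Mmp11 differed by 0.38 (limma, adjusted p = 0.0631) and 0.33 (adjusted p = 0.12). In that row all arrays of fractured bone lay above the control arrays.

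Mmp12, which encodes the macrophage metalloelastase, is described after its values were seen, because 1 array stood apart. Its signal was 7.79, 7.19 and 7.61 in the active group, 6.98, 6.64 and 8.996 in the resting group and 6.15, 6.50 and 5.79 in the control group. Resting replicate 3 stood far above the other resting arrays, and no array of fractured bone fell below the control arrays. The differences of 1.38 ± 0.49 (SE) in the active group (limma, adjusted p = 0.0662) and 1.39 ± 0.49 in the resting group (adjusted p = 0.0761) did not pass the test. Without resting replicate 3, the active difference passed (adjusted p = 0.00116) and the resting difference was 0.66 (adjusted p = 0.101). Without resting replicate 2, both passed, with adjusted p = 0.0428 in the active group and 0.029 in the resting group. The 9 macrophage markers measured alongside had a mean log2 signal of 8.62 to 8.83 per array in the active group, 8.41 to 8.92 in the resting group and 7.79 to 8.11 in the control group. Of these markers, 5 were higher in the active group and 6 in the resting group, against 11.8% and 9.08% of all rows. The part of these markers in the Mmp12 signal was not tested.

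Mmp13 encodes collagenase-3, the collagenase of hypertrophic cartilage and bone. It had signals of 9.24, 9.37 and 10.05 in the active group, 9.91, 8.59 and 9.91 in the resting group and 9.08, 9.77 and 9.29 in the control group. The 3 groups overlapped throughout. The differences were 0.17 (95% interval -0.59 to 0.94) in the active group and 0.09 (-0.68 to 0.86) in the resting group. Mmp1a and Mmp1b, the mouse relatives of interstitial collagenase, and Mmp20, the protease of tooth enamel, were among the dimmest 40% of rows and did not pass the test.

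The genes that were lower in fractured bone included 3 MMP genes known from neutrophils. Mmp8 encodes neutrophil collagenase, Mmp9 encodes gelatinase B, which neutrophils store in granules and osteoclasts also make, and Mmp25 encodes a membrane-type MMP of neutrophils. The signal of Mmp8 was 9.68, 9.02 and 9.67 in the active group, 10.55, 9.54 and 9.81 in the resting group and 11.10, 10.99 and 11.34 in the control group. All 6 arrays of fractured bone lay below the control arrays, and active and resting overlapped. The differences were -1.68 ± 0.25 (SE; limma, adjusted p = 6.77e-04) in the active group and -1.17 ± 0.25 (adjusted p = 0.00783) in the resting group.

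Mmp9 had signals of 10.38, 10.05 and 10.63 in the active group, 10.88, 10.53 and 10.64 in the resting group and 11.26, 11.23 and 11.33 in the control group. Each array of fractured bone was below each control array. The differences were -0.92 ± 0.15 (SE; limma, adjusted p = 0.00117) in the active group and -0.59 ± 0.15 (adjusted p = 0.0186) in the resting group. The resting call was lost without control replicate 3 or resting replicate 2 or 3 (adjusted p = 0.0651 to 0.0761). For Mmp25, the signal was 8.18, 7.27 and 8.08 in the active group, 8.74, 8.16 and 8.26 in the resting group and 9.06, 8.84 and 9.42 in the control group. The control arrays were again the highest. It was lower in the active group, with a difference of -1.26 ± 0.25 (adjusted p = 0.0036), and the difference of -0.72 ± 0.25 in the resting group did not pass the test (adjusted p = 0.0713). The resting difference passed without active replicate 2 (adjusted p = 0.0214) or resting replicate 1 (adjusted p = 0.037).

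Other genes of neutrophils and their precursors moved in the same direction. Of 13 such markers, which hold no MMP gene, 13 were lower in the active group, against 12.1% of all rows. In the resting group 4 of the markers were lower, against 10% of all rows, and none of the markers was higher in either group. Their mean log2 signal per array was 9.43 to 10.11 in the active group, 10.37 to 10.60 in the resting group and 10.89 to 11.14 in the control group, and the lowest value belonged to the active replicate that was also lowest for Mmp8, Mmp9 and Mmp25. Without that array, active replicate 2, the differences from control were -1.47 for Mmp8 (adjusted p = 0.0029), -0.77 for Mmp9 (adjusted p = 0.00303) and -0.98 for Mmp25 (adjusted p = 0.00825). Between active and resting, 0 of the 13 passed the test, and 10 of the 13 had active arrays entirely below the resting arrays, against 4.77% of all rows. No marker of the list had a group mean below 7.19 (Ly6g in the active group). Of 8 osteoclast markers, 3 were lower in the active group and 2 in the resting group, against 12.1% and 10% of all rows. Acp5 and Itgb3 were among them in both groups. No osteoclast marker passed as higher, but 1 had a difference above 0 with active dosing and 3 with resting dosing. For Ocstamp, the resting difference of 0.42 did not pass the test, although its resting arrays lay above all control arrays. The mean signal of the osteoclast list per array was 7.01 to 7.51 in the active group, 7.08 to 7.59 in the resting group and 7.58 to 7.997 in the control group. The part of these cells in the MMP signals was not tested, and in bulk tissue fewer cells of a type and less RNA per cell cannot be told apart.

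**Figure D3:**
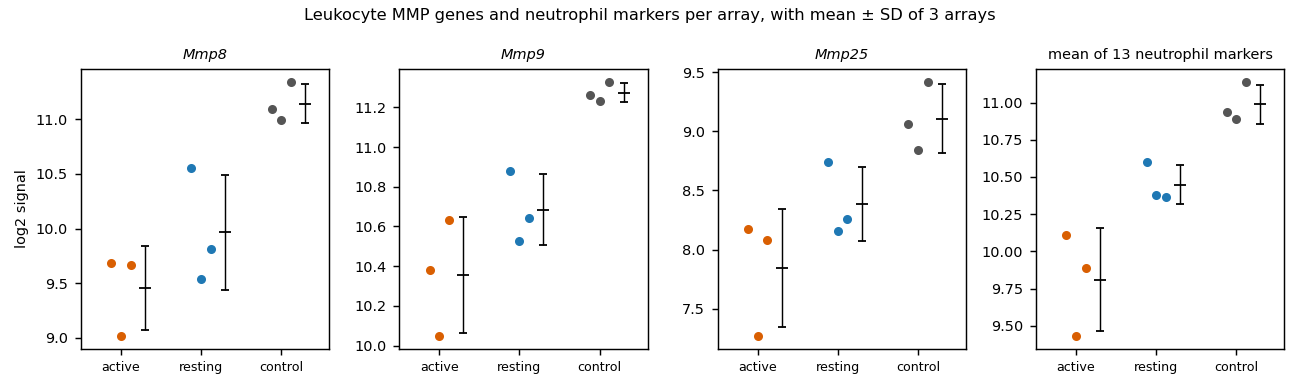
Log2 signal (vertical axis, with its own range in each panel and not starting at 0) of Mmp8, Mmp9 and Mmp25 and the mean of 13 neutrophil markers in each array of the active, resting and control groups. Points are single arrays, and the dash and bar beside them are the mean ± SD of 3 arrays; in every panel all control arrays are above all arrays of fractured bone, and the marker means of the active group (9.43 to 10.11) lie below those of the resting group (10.37 to 10.60).

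The proteoglycan-cleaving ADAMTS genes were led by Adamts4. Of the 7 genes of this group, 3 were higher in the active group, against 11.8% of all rows, and 4 in the resting group, against 9.08%. None of the 7 passed the test as lower. Adamts4 encodes aggrecanase-1, which cuts aggrecan and versican. Its signal was 8.22, 7.94 and 8.19 in the active group, 8.37, 8.13 and 8.36 in the resting group and 6.03, 5.71 and 5.44 in the control group. The lowest array of fractured bone (7.94) was well above the highest control array (6.03). The differences were 2.39 ± 0.15 (SE; 5.26-fold, limma, adjusted p = 4.63e-06) in the active group and 2.57 ± 0.15 (5.92-fold, adjusted p = 7.46e-06) in the resting group.

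Adamts1, a protease of versican and aggrecan, had signals of 7.88, 7.39 and 7.73 in the active group, 7.76, 7.85 and 7.85 in the resting group and 6.34, 6.36 and 6.58 in the control group. Active and resting overlapped, and both were above the control group. The differences were 1.25 ± 0.13 (SE; limma, adjusted p = 7.57e-05) in the active group and 1.40 ± 0.13 (adjusted p = 5.55e-05) in the resting group. Adamts9, another versican protease, was higher by 0.70 ± 0.14 in the active group (adjusted p = 0.00362) and by 0.84 ± 0.14 in the resting group (adjusted p = 0.00165). Adamts5, the aggrecanase best known from cartilage loss in mouse joints, was higher in the resting group (0.65 ± 0.17, adjusted p = 0.0192) and did not pass the test in the active group (0.38 ± 0.17, adjusted p = 0.132). Its direct difference between active and resting, -0.27 ± 0.17, did not pass either (adjusted p = 0.926). Adamts8, Adamts15 and Adamts20 were among the dimmest 40% of rows and did not pass the test in either comparison.

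The procollagen N-propeptidases and the ADAMTS proteases that cut cartilage oligomeric matrix protein (COMP) were higher in both comparisons, 3 of 3 and 2 of 2 genes. Of all rows, 11.8% were higher in the active group and 9.08% in the resting group. Adamts12, which cuts COMP, had the largest difference in these 2 families. Its signal was 8.41, 8.38 and 8.24 in the active group, 8.69, 8.12 and 8.55 in the resting group and 6.46, 6.23 and 6.04 in the control group. The lowest array of fractured bone (8.12) was well above the highest control array (6.46). The differences were 2.10 ± 0.16 (SE; 4.30-fold, limma, adjusted p = 9.83e-06) in the active group and 2.21 ± 0.16 (4.63-fold, adjusted p = 1.41e-05) in the resting group. Adamts7, its closest relative, was higher by 0.63 ± 0.12 in the active group (adjusted p = 0.00266) and by 0.74 ± 0.12 in the resting group (adjusted p = 0.00131).

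Adamts2 removes the N-propeptide of fibrillar procollagens. It had signals of 9.23, 9.32 and 9.64 in the active group, 9.46, 9.15 and 9.44 in the resting group and 8.33, 8.35 and 8.10 in the control group. All arrays of fractured bone lay above the control arrays. The differences were 1.14 ± 0.14 (SE; limma, adjusted p = 1.87e-04) in the active group and 1.09 ± 0.14 (adjusted p = 3.42e-04) in the resting group. Its relatives Adamts3 (0.75 with active and 0.77 with resting dosing) and Adamts14 (0.48 and 0.60) were higher too. A dimmer row of Adamts14 differed by 0.15 in the active group and by 0.01 in the resting group and did not pass the test, and the active call of the row used was lost without control replicate 3 or active replicate 3.

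Of the 7 other ADAMTS genes, Adamts6 and Adamts16 were higher in both groups of fractured bone. This was 28.6% of the 7, against 11.8% of all rows in the active group and 9.08% in the resting group. Adamts6 differed from control by 0.89 ± 0.19 (SE) in the active group and by 0.77 ± 0.19 in the resting group, and Adamts16 by 0.73 ± 0.16 and 0.64 ± 0.16. Adamts16 was the 1 gene of the dimmest 40% of rows that passed the test. Adamts13, the protease of von Willebrand factor, and Adamts10, Adamts17 and Adamts19 differed by 0.23 or less in either comparison and did not pass. Adamts18 is named after its values were seen, since resting replicate 1 (7.06) stood apart from the other resting arrays (5.89 and 5.64). Its difference in the resting group was 1.08 ± 0.35 (limma, adjusted p = 0.0548), and without that array it was 0.65 (adjusted p = 0.127). This resting difference passed without active replicate 1 (adjusted p = 0.0341) and, at 1.36, without resting replicate 3 (adjusted p = 0.0329). In the active group, replicate 1 (5.11) lay within the control range (4.97 to 5.27) and below the other active arrays (6.12 and 6.04). The active difference was 0.64 ± 0.35 (limma, adjusted p = 0.24), and 0.96 without active replicate 1 (adjusted p = 0.0738). Adamts18 was among the dimmest 40% of rows.

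Adamtsl1 and Adamtsl3, both coding for ADAMTS-like matrix proteins without protease activity, were higher in fractured bone. The signal of Adamtsl1 was 7.84, 7.89 and 7.85 in the active group, 7.62, 7.83 and 7.67 in the resting group and 5.98, 6.25 and 6.26 in the control group. The active arrays lay close together and just above all resting arrays. The differences from control were 1.70 ± 0.11 (SE; limma, adjusted p = 4.94e-06) in the active group and 1.54 ± 0.11 (adjusted p = 1.34e-05) in the resting group. Adamtsl3 had signals of 7.59, 7.39 and 7.01 in the active group, 7.23, 7.24 and 7.40 in the resting group and 6.02, 6.05 and 5.75 in the control group. It was higher in all arrays of fractured bone, by 1.39 ± 0.15 (adjusted p = 8.43e-05) in the active group and by 1.35 ± 0.15 (adjusted p = 1.43e-04) in the resting group. Adamtsl5 was higher by 0.49 with active and 0.44 with resting dosing, while Adamtsl2 and Adamtsl4, relatives that bind fibrillin, did not pass the test.

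Genes that act with these enzymes were read from 4 lists of 68 symbols, of which 66 had a row. As a reference for the list counts, 11.8% of all rows passed as higher and 12.1% as lower with active dosing. With resting dosing, these shares of all rows were 9.08% and 10%. Of 22 activators and other inhibitors, 8 were higher and 1 was lower in the active group, and 8 were higher in the resting group, where none passed as lower. Plat, which encodes tissue plasminogen activator, was higher by 1.83 ± 0.20 in both groups, and Pcolce, whose product enhances procollagen C-proteinase, by 1.64 ± 0.16 with active and 1.63 ± 0.16 with resting dosing. Of 10 ADAM proteases, 3 were higher and 1 was lower in the active group, and 4 were higher and 1 was lower in the resting group. Adam12 led them with 1.80 ± 0.17 in the active group and 1.78 ± 0.17 in the resting group.

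Of 20 matrix proteins that these proteases cut or process, 12 were higher and 2 were lower in the active group, and 14 were higher and 2 were lower in the resting group. Col3a1, which encodes the chain of type III collagen, was higher by 2.78 ± 0.17 (SE) with active and 3.02 ± 0.17 with resting dosing. Vcan, which encodes versican, a substrate of Adamts1, Adamts4 and Adamts9, was higher by 2.55 ± 0.16 with active and 2.50 ± 0.16 with resting dosing. Col2a1, the collagen of cartilage, differed from control by -1.20 ± 0.21 with active and by -0.67 ± 0.21 with resting dosing, and Vwf, the substrate of Adamts13, by -0.83 ± 0.14 in both groups. Col2a1 and Vwf were the genes that passed as lower and are named after their values were seen. Of 14 genes of AP-1 and other inducers of MMP transcription, 5 were higher and 2 were lower in the active group, and 7 were higher and 1 was lower in the resting group. Jun, an AP-1 subunit, was higher by 1.46 ± 0.27 with active and 1.68 ± 0.27 with resting dosing, and Fos, its partner, by 0.76 ± 0.22 with active and 1.26 ± 0.22 with resting dosing. In all 4 lists, 0 genes passed the test between active and resting.

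Marker genes of other cell types were counted in the same way, and over all rows 23.9% passed the test in the active group and 19.1% in the resting group. Of 8 fibroblast and stromal markers, 6 were higher in either group, with a mean log2 signal per array of 9.17 to 9.24 in the active group, 9.08 to 9.30 in the resting group and 7.62 to 7.89 in the control group. Dpep1 and Pi16 were the fibroblast markers that did not pass. Endothelial markers were higher for 4 of 6 with active and 3 of 6 with resting dosing, and muscle markers for 4 of 7 with active and 0 of 7 with resting dosing. With resting dosing, 6 of the 7 muscle markers still had differences from control above 0. Between active and resting, 0 of the 7 muscle markers passed the test (limma, smallest adjusted p = 0.66). All 6 erythroid markers and 7 of 8 B lymphocyte markers were lower in both groups. Of 8 osteoblast and osteocyte markers, 1 was higher and 1 was lower in the active group, and 2 were higher in the resting group. Of 5 chondrocyte markers, 1 (Lect1, named after its values were seen) was lower in either group. The shares of the osteoblast and chondrocyte lists that passed lay near those of all rows. The part of these cell types in the MMP, ADAMTS and TIMP signals was not tested.

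The last comparison asked whether the timing of the drug changed these genes, and 0 of the 51 passed the test between active and resting. The median log2 difference, active minus resting, was -0.03, against -0.01 over all rows. No row of the whole table had an adjusted p under 0.05 (limma, 0% of 24367 rows). The methods' t-test after Benjamini-Hochberg adjustment called 0 of the 51 genes as well. By limma, 6.11% of all rows and 1 of the 51 genes had an unadjusted p under 0.05. That gene was Mmp3, at -0.93 ± 0.36 (SE; limma, unadjusted p = 0.0267, adjusted p = 0.748), and its exact permutation p was 0.3. It was also the 1 gene of the 51 that was lower by at least 1.5-fold at an unadjusted p under 0.05, against 0.607% of all rows. Over all alternatives the Mmp3 difference ranged from -1.43 to -0.53, always lower in the active group.

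The next smallest p-values belonged to the 3 neutrophil-associated MMP genes and to Mmp2. Active minus resting, Mmp25 differed by -0.55 (95% interval -1.10 to 0.00; adjusted p = 0.823), Mmp9 by -0.33 (-0.66 to 0.00; adjusted p = 0.823), Mmp8 by -0.51 (-1.07 to 0.05; adjusted p = 0.864) and Mmp2 by -0.34 (-0.71 to 0.04; adjusted p = 0.866), with overlapping arrays in each case. The arrays of active and resting did not overlap for 1 gene that was higher in the active group, Adamtsl1, and for 1 that was lower, Timp1, against 5.16% and 4.77% of all rows. The difference of Timp1 was -0.17 (95% interval -0.42 to 0.07; adjusted p = 0.931) and that of Adamtsl1 was 0.16 (-0.09 to 0.40; adjusted p = 0.933). For Adamts4 the interval was -0.51 to 0.17 and for Mmp14 it was -0.49 to 0.34, so that small differences between dosing times were not detectable for these genes with 3 arrays per group.

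Across all 9 fits that left out 1 array, 19 of the 21 genes higher in the active group and 17 of the 23 higher in the resting group stayed past the threshold. Of the lower genes, 3 of 4 in the active group and 1 of 3 in the resting group, Mmp8, did so. Of the 51 genes, 13 were among the dimmest 40% of rows, and their signals do not show whether they were expressed in this tissue.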

How the data were processed

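The authors labelled 100 ng of total RNA per array, scanned GeneChip Mouse Gene 2.0 ST arrays and normalized them, with GeneSpring GX named in the methods. The sources used here do not give the algorithm, the log base or the genome build. The values are the authors' deposited normalized signals, taken as log2 from their range. They stand in a table of 24367 rows with gene symbols. All of these rows were found in the deposited table of 41345 probe sets with the same 9 values in the same groups, but 1 row alone had them in the same replicate order. The numbers used here come from the gene-symbol table. Arrays give no read depth, and their number limits the precision.

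The comparisons used limma 3.58.1 under R 4.3.3 (lmFit and eBayes, 1 fit of 9 arrays, 6 residual degrees of freedom). Benjamini-Hochberg adjustment ran across all rows, with 0.05 as the threshold. Two-sided exact permutation tests of 3 arrays against 3 were run beside it. The steps were tested on simulated data. The members, the gene lists and the rule for named genes were chosen with earlier results of these data known. By that rule, signals of every array are given for the TIMP genes, for members with an absolute log2 difference of at least 1 and an adjusted p under 0.05 against control, and for the 5 members with the smallest p between active and resting. Of the lists of acting partners, called members with the 4 largest differences may be named. Mmp12, Mmp13 and Adamts18 and marker genes were named after their values were seen. Promoters were taken from RefSeq (GRCm38.p6). The alternatives were median centring, quantile normalization, array weights, an intensity trend, a replicate block, the methods' t-test, a fit of the 6 arrays compared, a filter on the dimmest 40% of rows, the mean of a gene's rows, the probe set table, fold thresholds and leaving out each array. A block that takes its numbers from the probe set table was added after the data were seen. Plots were made with matplotlib 3.10.9 (Python 3.11.15).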

Additional observations from a re-analysis of the deposited data

How the results depend on the processing

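No difference of a named gene that passed the test changed direction under the alternatives. Of the values of named genes, 357 of 369 kept their side of the threshold when 1 array was left out and 435 of 447 did so under the other settings. The exceptions were Timp4 in both comparisons with control, Mmp9 and Mmp25 in both, and Mmp8 in the resting group. Without 1 array, the active group had 19 to 22 members higher and 3 to 4 lower than control, the resting group 18 to 24 higher and 1 to 4 lower, and active against resting stayed at 0. The methods' t-test with Benjamini-Hochberg adjustment gave 1 lower member in the active group, and 14 higher and 0 lower members in the resting group. At the study's thresholds (at least 1.5-fold, unadjusted p under 0.05), applied here to limma p-values, 1 member (Mmp3) was lower in active than in resting. The study took its p-values from an unpaired t-test, whose unadjusted p-values are not given here. Replicate numbers did not pair the arrays, since the deviations of same-numbered arrays correlated at -0.252 to 0.166, and at -0.19 to 0.169 by the numbers of the probe set table. With the replicate number as a block, 21 members lay above and 4 below control with active dosing, 22 above and 4 below with resting dosing, and 0 differed between active and resting. With the block by the numbers of the probe set table, chosen after the data were seen, these counts were 18 and 4, 16 and 3, and 0. Further calls for the active group were lost without single arrays for Adamtsl5 (control 2, control 3 or active 3) and Adamts14 (control 3 or active 3). For the resting group, such calls were those of Adamtsl5 (control 2 or 3, resting 1 or 2), Adamts5 (control 1 or 3, resting 2 or 3), Adamts16 (control 1, resting 2 or 3), Adamts6 (control 3, resting 1 or 3), Mmp15 (control 2 or 3, resting 2 or 3) and Mmp16 (control 1, 2 or 3, resting 1). The cause was not tested. Fewer arrays leave fewer degrees of freedom. With 3 arrays per group, small differences between active and resting were not detectable.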
